A study of Mus musculus with 4 samples.

Results

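The Zscan4 copies and Zfp352 are genes of the two-cell-like state, a brief state that a small share of mouse embryonic stem cells (ESCs) enters and leaves in culture. The group was chosen by name and held 8 genes, Zscan4b, Zscan4c, Zscan4d, Zscan4e, Zscan4f, Tcstv1, Tcstv3 and Zfp352, out of 26301 genes in the table. Of these 8, 7 had a row and 6 had counts: Tcstv3 was at 0 in every library, and Tcstv1 was not analysed here. The table itself gave the names Zscan4d (545913), Zscan4f (665902) and Zfp352 (236537), whereas the other 3 genes with counts were found by their Entrez identifiers, Zscan4b (665780) and Zscan4e (665848) under rows without a name and Zscan4c (245109) under the name Gm397.

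The study sequenced messenger RNA of mouse ESCs to ask how expression changes when REST, a repressor of neuronal genes, is lost. WT cells were the line N6 and Rest-/- cells the line N8, and each genotype had 2 libraries described as biological replicates. Since each genotype was 1 line, genotype and line cannot be told apart, and p-values here measure only the spread between libraries of these lines. Both lines grew with LIF and serum on irradiated mouse fibroblasts, followed by 3 passages on gelatin to remove the fibroblasts, and the 4 libraries were pooled for sequencing. The labels number the libraries 1 and 2 in each genotype without saying whether a number marks a shared day, culture or extraction.

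Zscan4 proteins carry a SCAN domain and zinc fingers, and are made in a burst in the 2-cell embryo and in a changing minority of ESCs, where they are known for their part in telomere lengthening and genome stability. The factor Dux switches on Zscan4, Zfp352, the Tcstv genes and MERVL retroviral elements, while chromatin repressors such as Kdm1a (LSD1), Trim28 and the H3K9 methyltransferase Ehmt2 (G9a) hold this programme back. Kdm1a and Ehmt2 are also known partners of REST.

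The 5 Zscan4 copies lie in 1 cluster on chromosome 7, and in the NCBIM37 (mm9) genome with GENCODE M1 models they span Zscan4b at chr7:11486098-11490399, Zscan4c at chr7:11591071-11595896, Zscan4d at chr7:11746992-11751497, Zscan4e at chr7:11891727-11896031 and Zscan4f at chr7:11983264-11988090. Zscan4b, Zscan4d and Zscan4e are on the minus strand, and Zscan4c and Zscan4f on the plus strand. Zfp352, a zinc finger gene, lies apart at chr4:89885511-89892393 on the plus strand. Zscan4e is protein coding in GENCODE M1 and a pseudogene in RefSeq.

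The copies are close to identical, which bears on every value of a single copy. Pairs of their longest transcripts were between 96.8% (Zscan4b with Zscan4d) and 99.7% (Zscan4b with Zscan4e) identical over the aligned bases. Of all stretches of 50 bases, 97.8% in Zscan4f, 91.6% in Zscan4e, 90.5% in Zscan4b, 78.3% in Zscan4c and 47.3% in Zscan4d also occurred in another Zscan4 copy, against 0% for Zfp352. A read from such a stretch has no single origin, the handling of such reads is not given in the sources used here, and the split of counts among copies is therefore uncertain. The sum over the 5 copies does not depend on the split among them.

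The same likeness extends upstream of the genes. The 200 bases before the start of 4 copies and of Zfp352 (RefSeq, GRCm38.p6, 5′ to 3′ on the gene's strand) are shown to let the copies be compared with each other and with Zfp352, with the TATA box TATAAA and the Dux motif core GATTCAAT in capitals.
Zscan4b (chr7:10905051-10905250, minus strand): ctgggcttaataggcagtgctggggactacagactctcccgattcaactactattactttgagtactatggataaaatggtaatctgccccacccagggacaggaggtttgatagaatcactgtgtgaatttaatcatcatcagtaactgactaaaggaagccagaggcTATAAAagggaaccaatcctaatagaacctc
Zscan4c (chr7:11005545-11005744, plus strand): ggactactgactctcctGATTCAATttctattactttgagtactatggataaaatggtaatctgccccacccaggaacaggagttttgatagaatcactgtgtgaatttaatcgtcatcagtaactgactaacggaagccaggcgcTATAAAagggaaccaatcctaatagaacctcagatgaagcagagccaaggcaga
Zscan4d (chr7:11166149-11166348, minus strand): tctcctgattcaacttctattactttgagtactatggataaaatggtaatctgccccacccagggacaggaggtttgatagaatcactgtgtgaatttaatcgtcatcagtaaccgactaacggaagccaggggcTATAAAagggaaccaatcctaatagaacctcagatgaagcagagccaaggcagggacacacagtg
Zscan4f (chr7:11397715-11397914, plus strand): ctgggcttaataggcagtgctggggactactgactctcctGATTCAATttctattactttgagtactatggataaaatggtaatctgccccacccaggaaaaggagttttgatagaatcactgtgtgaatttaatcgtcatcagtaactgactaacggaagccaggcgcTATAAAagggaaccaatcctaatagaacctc
Zfp352 (chr4:90218620-90218819, plus strand): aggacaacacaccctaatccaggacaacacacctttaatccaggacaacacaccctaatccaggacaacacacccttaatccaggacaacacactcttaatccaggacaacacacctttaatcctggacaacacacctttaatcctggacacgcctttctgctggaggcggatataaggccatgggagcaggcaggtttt
Over 250 bases before the start, the 4 copies were 94.7% to 99.6% identical in pairs, with Zscan4c and Zscan4f the closest pair. All 4 held TATAAA on at least 1 strand, as did 12.4% of 32851 mouse promoters, and Zfp352 did not. GATTCAAT stood in Zscan4c and Zscan4f, and in 0.460% of promoters on either strand. The left part of the RE1 element to which REST binds, TTCAGCACC, and the right part, GGACAGCGC, were in none of these 5 windows, and were in 0.301% and 0.304% of promoters.

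Every member with counts was low in all 4 libraries, whose total counts ran from 22293966 to 30953863. The levels that follow are CPM, the counts scaled to a common library size by TMM, and 3 counts corresponded to 0.0969 to 0.135 CPM. Zscan4d was given the most counts of the 5 member copies. It had 149 and 27 WT counts in replicates 1 and 2 (4.81 and 1.01 CPM) and 85 and 8 Rest-/- counts (3.29 and 0.361 CPM). Zscan4c had 77 and 9 WT counts (2.49 and 0.336 CPM) and 47 and 7 Rest-/- counts (1.82 and 0.316 CPM). Both genes were highest in the replicate 1 library of each genotype, and the genotypes overlapped.

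Zscan4e had 54 and 16 WT counts (1.74 and 0.597 CPM) and 29 and 0 Rest-/- counts (1.12 and 0 CPM). Zscan4b had 46 and 5 WT counts (1.49 and 0.187 CPM) and 26 and 5 Rest-/- counts (1.01 and 0.226 CPM). Zscan4f had 34 and 4 WT counts (1.10 and 0.149 CPM) and 12 and 0 Rest-/- counts (0.465 and 0 CPM). For each of these 3 copies the replicate 1 library of either genotype stood above the replicate 2 library of both, and Zscan4e and Zscan4f were not detectable at this depth in Rest-/- replicate 2.

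Zfp352 had 48 and 9 WT counts (1.55 and 0.336 CPM) and 26 and 1 Rest-/- counts (1.01 and 0.0452 CPM). This gene, on another chromosome and sharing no 50-base stretch with the Zscan4 copies, had the same order of libraries as Zscan4d. That order, WT replicate 1, Rest-/- replicate 1, WT replicate 2 and Rest-/- replicate 2 from high to low, held for 5 of the 6 genes, Zscan4b being the exception, and for 11.7% of the 15444 genes tested.

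**Figure D1:**
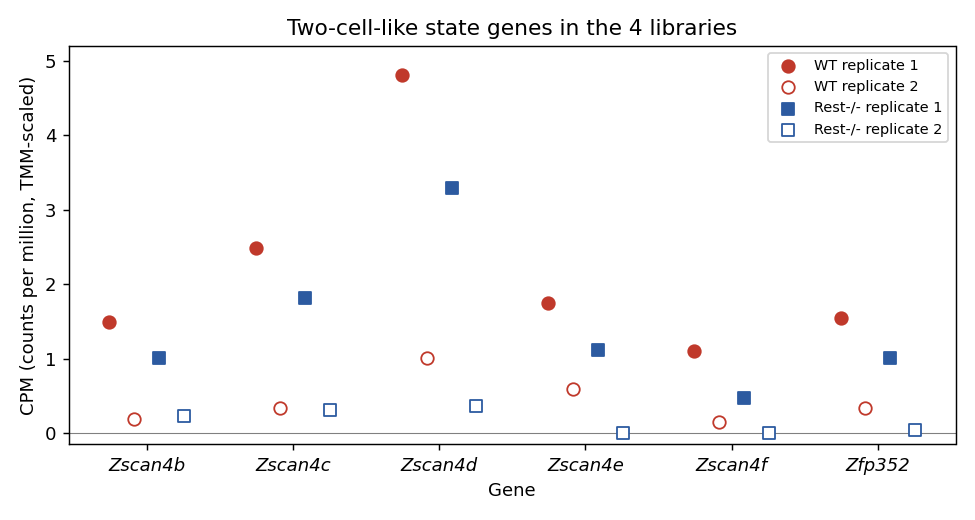
The 6 genes with counts are plotted on the horizontal axis and their level in CPM (TMM-scaled) on the vertical axis, with 1 point per library (circles WT, squares Rest-/-, filled replicate 1, open replicate 2). For every gene both filled points lie above both open points, from Zscan4d at 4.81 CPM down to Zscan4e and Zscan4f at 0.

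Per kilobase of exon, levels in WT replicate 1 were 2.42 CPM for Zscan4d, 1.08 for Zscan4c, 0.999 for Zscan4e, 0.852 for Zscan4b, 0.666 for Zfp352 and 0.452 for Zscan4f. Among the copies, Zscan4d had the largest share of 50-base stretches found in no other gene (52.8%) and Zscan4f the smallest (2.24%). The part of this in the levels of single copies was not tested. Zscan4d took a similar share of the 5-copy sum, 41.4% (95% exact binomial interval 36.3% to 46.7%) and 44.3% (31.6% to 57.6%) in WT and 42.7% (35.7% to 49.9%) and 40% (19.1% to 64.0%) in Rest-/-. These 4 intervals overlapped. Zscan4e took 15.0% (11.5% to 19.1%) and 26.2% (15.8% to 39.1%) in WT, 14.6% (9.98% to 20.3%) in Rest-/- replicate 1, and 0 of 20 counts in Rest-/- replicate 2, which allows a share of up to 15.0% by a limit of 3 counts and 16.8% by the exact interval. Intervals and limits of this kind cover counting error only.

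The summed Zscan4 copies differed by more between the replicate numbers within a genotype than between the genotypes within a replicate number. Summed over the 5 Zscan4 copies, replicates 1 and 2 had 360 and 61 counts for WT (11.6 and 2.28 CPM), but 199 and 20 for Rest-/- (7.70 and 0.903 CPM). Replicate 1 was thus 5.11 times replicate 2 in WT (95% exact counting interval 3.88 to 6.81) and 8.53 times in Rest-/- (5.38 to 14.3). In bulk RNA, fewer cells in the two-cell-like state and less RNA per such cell cannot be told apart.

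The copies and Zfp352 shared this difference. In WT the ratio of replicate 1 to replicate 2 was 7.96 (3.18 to 25.7) for Zscan4b, 7.40 (3.70 to 16.8) for Zscan4c, 4.77 (3.15 to 7.49) for Zscan4d, 2.92 (1.65 to 5.47) for Zscan4e, 7.35 (2.62 to 28.5) for Zscan4f and 4.61 (2.24 to 10.7) for Zfp352. In Rest-/- it was 4.46 (1.69 to 14.9) for Zscan4b, 5.76 (2.59 to 15.1) for Zscan4c, 9.11 (4.42 to 21.8) for Zscan4d and 22.3 (3.66 to 914, from 26 counts against 1) for Zfp352. Zscan4e and Zscan4f, at 0 in Rest-/- replicate 2, were at least 8.29-fold and at least 3.43-fold higher in replicate 1, taking 3 counts in replicate 2 as the floor, and their exact counting intervals began at 6.32 and 2.38. Each of these intervals excluded 1, and they overlapped among the genes.

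On the log2(CPM + 0.5) scale, which understates changes of low genes, replicate 1 exceeded replicate 2 by 1.03 (Zscan4e) to 1.84 (Zscan4c) in WT and by 0.95 (Zscan4f) to 2.14 (Zscan4d) in Rest-/-. The median over the 6 genes was 1.42 in WT and 1.49 in Rest-/-, against -0.00 and 0.01 over all 15444 genes tested. A difference of over 2-fold on this scale in both genotypes was seen for 5 of the 6 genes, for 3.22% of all genes tested, and for 3.34% of the 2694 genes whose mean level lay in the members' range of 0.428 to 2.37 CPM. Zscan4f was the gene under that limit, in Rest-/-.

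**Figure D2:**
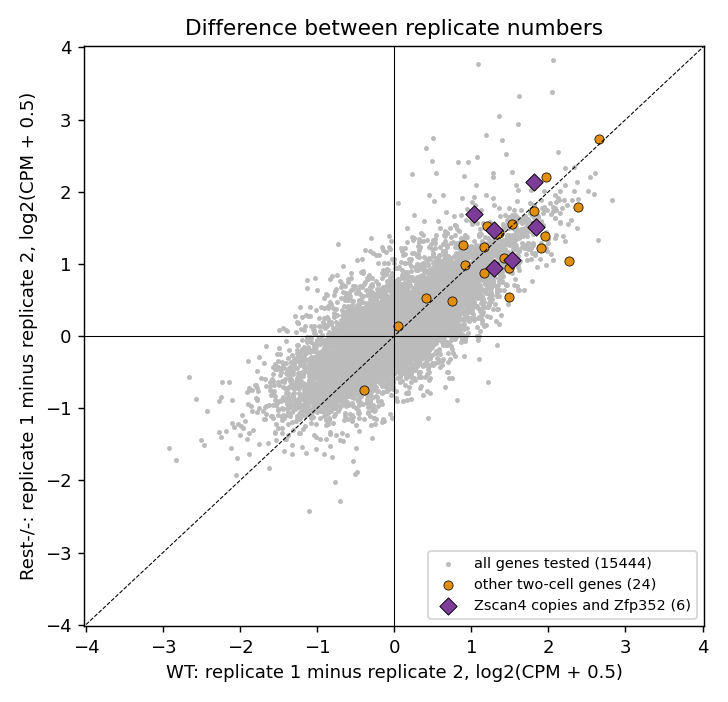
Each point is a gene, placed by the difference between replicate 1 and replicate 2 in log2(CPM + 0.5), in WT on the horizontal axis and in Rest-/- on the vertical axis (grey, all 15444 genes tested; orange, 24 other 2-cell genes; purple diamonds, the 5 Zscan4 copies and Zfp352). The 6 diamonds lie at the upper right near the dashed line of equal differences, between 1.03 and 1.84 in WT and between 0.95 and 2.14 in Rest-/-.

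The base composition of transcripts moved with the replicate number across the whole table. Among the 13767 tested genes with a transcript sequence (89.1%), the median difference between replicates 1 and 2 fell from 0.61 in WT and 0.57 in Rest-/- in the bin lowest in GC (33.2% to 42.3%), of 10 equal bins, to -0.20 and -0.14 in the highest bin (58.6% to 72.9%). The members' longest transcripts had 42.3% (Zscan4f) to 44.4% GC (Zscan4b), which placed Zscan4f in the lowest bin and the other 5 genes in the next. In that next bin the median difference was 0.24 in both genotypes, and 2.83% of genes were over 2-fold higher in replicate 1 in both, against 18.2% in the lowest bin. Every member was above the median of its bin in both genotypes, and the part of base composition in the members' values was not tested.

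**Figure D3:**
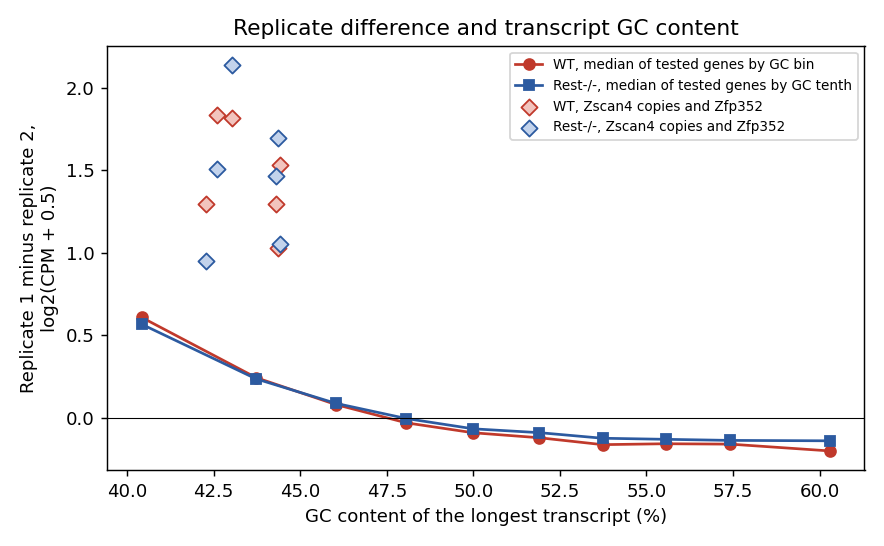
The difference between replicate 1 and replicate 2 in log2(CPM + 0.5) is plotted against GC content of the longest transcript (%), with lines joining the medians of 10 bins of tested genes at each bin's median GC, and diamonds for the 6 members (red WT, blue Rest-/-). The lines fall from about 0.61 and 0.57 at the left to -0.20 and -0.14 at the right, and all 12 diamonds lie above them.

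Loss of REST was examined next. Rest itself had 7908 and 6233 WT counts and 4244 and 3890 Rest-/- counts, a log2 fold change of -0.52 (SE 0.13) with an adjusted p of 0.526 in edgeR's quasi-likelihood test with Benjamini-Hochberg adjustment. The row counts the whole gene and the deleted part is not given in the sources used here, so it checks the labels only in direction.

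None of the 6 members was called different between the genotypes at an adjusted p under 0.05 in this test, in which 9 of 15444 genes (0.0583%) were called, and none had an unadjusted p under 0.05 (6.71% of all genes). DESeq2, which called 1.54% of all genes, called none of the 6 either. Fitted levels were lower in Rest-/- for all 6, by 0.40 (Zscan4c) to 1.37 (Zscan4f) on the log2 scale, but 1 of 6 was lower without WT replicate 1 and 2 of 6 without Rest-/- replicate 2. The means were 2.91 ± 2.69 CPM in WT and 1.83 ± 2.07 in Rest-/- for Zscan4d (SD, n = 2), and 0.943 ± 0.859 and 0.526 ± 0.680 for Zfp352. The difference of the means was smaller than the SD of either genotype for both genes.

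The log2 fold change was -0.66 (SE 1.19) for Zscan4d, -0.40 (SE 1.19) for Zscan4c and -0.43 (SE 1.15) for Zscan4b. It was -1.03 (SE 1.41) for Zscan4e and -0.82 (SE 1.29) for Zfp352. For Zscan4f, the value of -1.37 (SE 1.48) rested on few counts, with 0 in Rest-/- replicate 2. All 6 adjusted p-values in edgeR were 1.00.

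The 5-copy sum was 6.95 ± 6.61 CPM in WT and 4.30 ± 4.81 CPM in Rest-/- (SD, n = 2). The log2 fold change was -0.69 (SE 1.21), with an adjusted p = 0.9999 in edgeR. Within a replicate number, Rest-/- had 0.662 times the WT level in replicate 1 (95% exact counting interval 0.554 to 0.790) and 0.396 times in replicate 2 (0.227 to 0.666). These intervals compare single libraries and not the genotypes. With 1 library left out, which also leaves the replicate numbers unequal between the genotypes, the log2 fold change was 0.91 without WT replicate 1, 0.14 without Rest-/- replicate 2, -1.43 without WT replicate 2 and -2.94 without Rest-/- replicate 1.

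Within both replicate numbers, 5 of the 6 members were lower in Rest-/-, a pattern of 36.4% of all genes tested. The exception was Zscan4b, with a difference of -0.40 in log2(CPM + 0.5) in replicate 1 and 0.08 in replicate 2, where each genotype had 5 counts. Zscan4c differed by -0.37 and -0.03, so that its replicate 2 libraries were close to level. Zscan4d (-0.49 and -0.81), Zscan4e (-0.47 and -1.13), Zscan4f (-0.73 and -0.38) and Zfp352 (-0.44 and -0.62) were lower by more.

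The wider 2-cell programme was described with a list of 59 names of other genes known from 2-cell embryos and two-cell-like ESCs, some naming the same gene. The names led to 51 genes with a row, of which 41 had counts and 24 passed the filter on low counts. None was called by edgeR's quasi-likelihood test, where 3 of the 24 had an unadjusted p under 0.05 (6.71% of all genes), and none by DESeq2. The exact tests of edgeR called Pramel6 with tag-wise dispersion (1.51% of all genes) and both Pramel6 and Pramel7 with common dispersion (2.22%). Their median log2 fold change was -0.98 (range -2.60 to 0.87) beside -0.00 over all genes tested. Within replicates 1 and 2 the median difference of these genes was -0.87 and -0.52 in log2(CPM + 0.5). With 1 library left out, the replicate numbers are unequal between the genotypes. The median log2 fold change was then 0.62 without WT replicate 1, -0.38 without Rest-/- replicate 2, -1.72 without WT replicate 2 and -2.79 without Rest-/- replicate 1. Of the 41 rows with counts, 24 were lower in Rest-/- within both replicate numbers, a pattern of 32.0% of all 20644 rows with counts, and 35 were higher in replicate 1 in both genotypes, a pattern of 38.7%. Genes that were at 0 or near it did not enter the test.

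Zscan4a, another copy of the cluster and a transcribed pseudogene in RefSeq, had 180 and 30 WT counts and 117 and 13 Rest-/- counts, a log2 fold change of -0.43 (SE 1.18). Adding it to the 5 copies gave -0.60 in place of -0.69. Its libraries stood in the order of Zscan4d. Dux under its own name was not analysed here, and the row of its RefSeq family member Duxf3 held 1 count, in WT replicate 2.

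Families of 2-cell genes with many copies were summed over their rows. The Usp17l deubiquitinase rows summed to 10.7 and 2.05 CPM in WT and 4.88 and 0.993 CPM in Rest-/-. The 7 Eif1a-like rows on chromosome 12, relatives of a translation initiation factor, summed to 16.2 and 1.38 CPM in WT and 8.94 and 0.813 CPM in Rest-/-. The Tdpoz rows, encoding proteins with TRAF and POZ domains, summed to 3.78 and 0.523 CPM in WT and 1.05 and 0.0452 CPM in Rest-/-. In these 3 families, as in the Zscan4 copies, each replicate 1 library exceeded both replicate 2 libraries.

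The Pramel rows were summed likewise. Their sum was 25.6 and 8.25 CPM in WT and 9.29 and 1.58 CPM in Rest-/-, so that Rest-/- replicate 1 was close to WT replicate 2. Pramel6 and Pramel7 had the highest counts of these rows in every library. The other tested rows, Pramel16, Pramel19, Pramel20 and Pramel31, were each higher in Rest-/- replicate 1 than in WT replicate 2. Pramel6 had 328 and 102 WT counts and 50 and 9 Rest-/- counts, a log2 fold change of -2.60 (SE 0.90, adjusted p = 0.725 in edgeR), and Pramel7 had 234 and 80 against 58 and 10 (-1.95, adjusted p = 0.858). In both, as in Patl2 and Zscan5b of the list, each WT library exceeded each Rest-/- library in CPM, and Tfap2a went the other way. The share of all genes with such a pattern was not counted. Patl2, which encodes an RNA-binding protein of oocytes, had 566 and 645 WT counts and 207 and 305 Rest-/- counts (-0.96, SE 0.35, adjusted p = 0.733) and was the most abundant gene of the list.

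The other listed genes named for their abundance were Gm4340 (-0.99), Gm5662 (-0.48), Gm8300 (-1.01), Gm2016 (-0.96), Usp17le (-1.10), Usp17lb (-1.32), Usp17lc (-1.05) and Tmem92 (-0.92), each with its log2 fold change and none called by edgeR's quasi-likelihood test. Higher fitted levels in Rest-/- were found for Pramel16 (0.60), Pramel20 (0.87) and the transcription factor Tfap2a (0.77), which were the 3 tested genes of the list with a positive value.

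**Figure D4:**
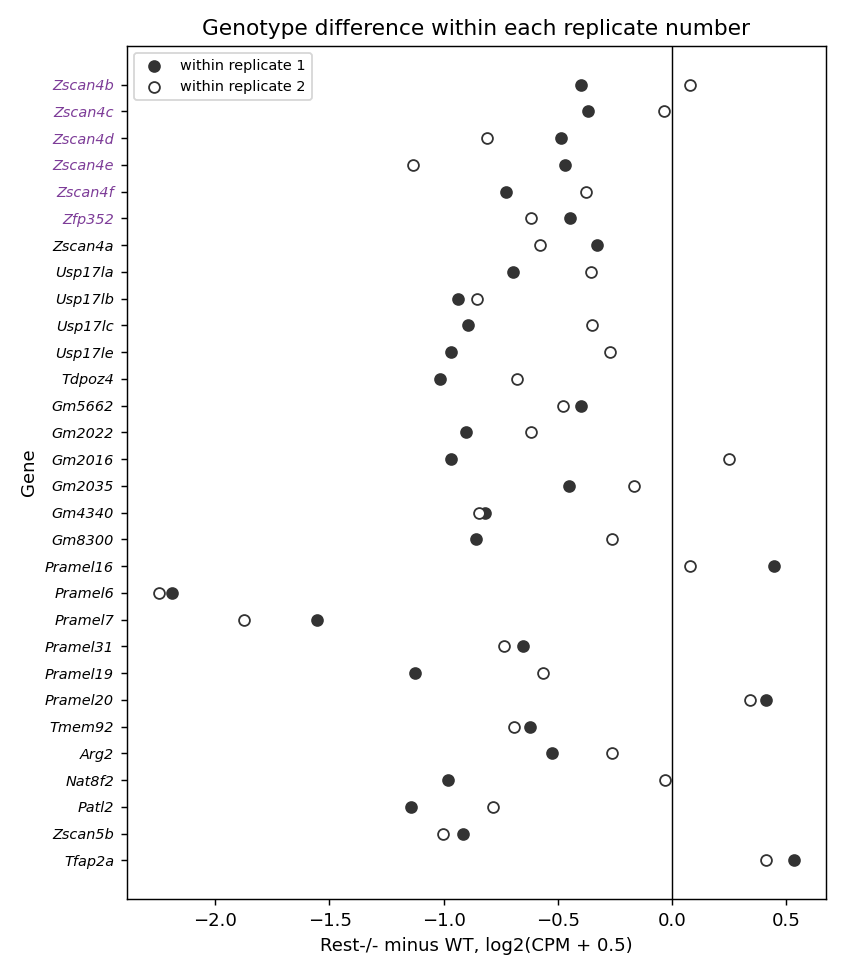
The difference between Rest-/- and WT in log2(CPM + 0.5) is plotted on the horizontal axis within replicate 1 (filled) and within replicate 2 (open) for the 6 members, in purple, and the 24 tested genes of the 2-cell list, in black. Most points lie left of 0, with Pramel6 farthest at about -2.2, while Zscan4b and Zscan4c are at 0.08 and -0.03 in replicate 2 and Pramel16, Pramel20 and Tfap2a lie right of 0 in both.

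Proteins known to hold back or favour the two-cell-like state formed a list of 35 genes, all tested. None was called by edgeR's quasi-likelihood test, 18 were fitted lower and 17 higher in Rest-/-, and the median log2 fold change was -0.00. Kdm1a (-0.02), Trim28 (0.03), Dppa2 (-0.08) and Dppa4 (0.08), the last pair being activators of Dux, were close to 0. Zfp42 (Rex1), a zinc finger protein of ESCs, had 21811 and 14492 WT counts and 6669 and 5014 Rest-/- counts. Its log2 fold change was -1.36 (SE 0.18, adjusted p = 0.179 in edgeR). DESeq2 (1.54% of all genes) and edgeR's exact tests with tag-wise (1.51%) and common dispersion (2.22%) each called Zfp42 alone in the list.

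The remaining regulators with the largest differences were Ehmt2 (0.42), Lin28a (0.38), Uhrf1 (-0.38), Mga (-0.31), Pcgf6 (-0.24) and Chaf1b (-0.22), in log2 fold change. Rif1, which holds back Zscan4 and acts at telomeres, had 22539 and 7216 WT counts and 15457 and 5277 Rest-/- counts (-0.25, SE 0.65). Its libraries were in the same order as those of Zscan4d, with replicate 1 highest in each genotype.

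Telomere and meiotic recombination proteins, processes in which Zscan4 takes part, were listed as 22 genes, of which 21 were tested, 14 fitted lower and 7 higher, and none called by edgeR's quasi-likelihood test or DESeq2, while the exact test with common dispersion (2.22% of all genes) called Smc1b and Hormad1. Smc1b, a meiotic cohesin, had 315 and 98 WT counts and 58 and 16 Rest-/- counts (-2.21, SE 0.78, adjusted p = 0.729 in edgeR). Hormad1, of the meiotic chromosome axis, had 346 and 47 against 93 and 21 (-1.50), Sycp1, of the synaptonemal complex, 289 and 59 against 141 and 35 (-0.71), and the recombinase Dmc1 was at 0.37. Smc1b, Hormad1 and Sycp1 were each higher in replicate 1 of both genotypes.

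Markers of the labelled cells and of others were measured beside these genes. All 15 pluripotency markers had counts and summed to 5865 to 6010 CPM in WT and 5149 to 5417 CPM in Rest-/-. Of these, 8 were fitted lower and 7 higher in Rest-/-, from -1.36 (Zfp42) to 0.67 (Klf5) in log2 fold change. None was called by edgeR's quasi-likelihood test, while DESeq2 (1.54% of all genes) called 3, Zfp42, Fgf4 (-0.98) and Klf2 (-0.84). Fibroblast markers, 9 of 10 with counts and Lum at 0, summed to 34.0 to 38.3 CPM in WT, 112 CPM in Rest-/- replicate 1 and 32.5 CPM in Rest-/- replicate 2. The 10 trophoblast markers summed to 191 and 489 CPM in WT and 294 and 637 CPM in Rest-/-, lower in replicate 1 of each genotype. Tfap2c, Krt8 and Krt18 were the largest parts of this sum. Of the 9 tested, 1 (Ascl2) was higher in replicate 1 of both genotypes, and Cdx2 and Eomes were so in Rest-/- alone. The 8 germ cell markers summed to 64.7 and 32.0 CPM in WT and 74.6 and 36.8 CPM in Rest-/-, higher in replicate 1 of each. The 10 primitive endoderm markers summed to 425 and 496 CPM in WT and 671 and 644 CPM in Rest-/-, with Sparc the largest part in each library. All 10 were fitted higher in Rest-/-, by 0.09 (Foxa2) to 2.26 (Gata6) on the log2 scale, and none was called by edgeR's quasi-likelihood test. DESeq2 (1.54% of all genes) called Pdgfra (2.095), and edgeR's exact tests with tag-wise (1.51%) and common dispersion (2.22%) called Gata6 and Pdgfra. The part of these cells in the members' values was not tested.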

How the data were processed

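Total RNA of 2 WT and 2 Rest-/- ESC cultures was made into TruSeq v2 libraries and sequenced on a HiSeq 2000. The counts per gene that the authors deposited are whole, unnormalized read counts, made with Subread and featureCounts on mm9 per the labels (submitters' processing notes). Strand setting, read length, annotation version and multi-mapping rule are not given in the sources used here. Counts of overlapping or antisense genes may therefore be mixed. The 368 rows without an identifier were left out, and 24191 identifiers matched RefSeq, which supplied names.

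Genes were filtered with filterByExpr, which left 15444 genes, scaled by TMM and tested in edgeR 4.0.16 (R 4.3.3, limma 3.58.1) by the quasi-likelihood test without covariates (prior count 0.125), with Benjamini-Hochberg adjustment over all genes tested and a threshold of 0.05. Fold changes are Rest-/- over WT. The procedure was first tested on simulated data. Values of single libraries are CPM or log2(CPM + 0.5). Ratios of 2 libraries carry exact 95% binomial intervals of their counts, and 3 counts served as the floor for a 0. Reads have no molecular identifiers, so intervals cover counting error only. Alternatives were RLE scaling, no filter, at least 10 counts in every library, DESeq2 1.42.0, edgeR's exact tests under both tag-wise and common dispersions, a prior count of 2, a replicate block and leaving out each library.

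The members, gene lists and tests were chosen with earlier results of these data known. Named genes were all members, Zscan4a, of the 2-cell list the 12 with the highest mean CPM, of the regulators and telomere lists the 8 and 4 with the largest absolute log2 fold change, 6 fixed regulators (Zfp42, Dppa2, Dppa4, Kdm1a, Trim28, Rif1), any called gene, and the 5 genes closest in pattern to the summed Zscan4 copies. Other genes named were chosen after their values were seen, as was the Dux motif core after the sequences were seen. Positions and transcript sequences are from NCBIM37 with GENCODE M1, and promoters from RefSeq GRCm38.p6.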

Additional observations from a re-analysis of the deposited data

How the results depend on the processing

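Of the 15444 genes tested, 9 were called with the settings of the report, 10 with RLE scaling and 9 with a prior count of 2. The number was 53 without a filter, 3 with at least 10 counts in every library, 233 and 343 with edgeR's exact tests of tag-wise and common dispersion, 238 with DESeq2, and 60 to 113 with 1 library left out. No member was called under any of these settings or with the replicate block, while 0 of the 6 entered the test with at least 10 counts in every library. Unadjusted p-values under 0.05 were found for 2 members with common dispersion (6.95% of all genes tested), 2 with the replicate block (31.1%) and 4 without Rest-/- replicate 1 (4.53%). Genes of the 2-cell list called numbered 0 in edgeR's quasi-likelihood test, 1 (Pramel6) with tag-wise dispersion, 2 (Pramel6 and Pramel7) with common dispersion and 7 with the replicate block. The replicate number is stated nowhere as a pairing, and the 2 pairs cannot establish one. Deviations from the group mean correlated at 0.81 between same-numbered libraries over 15444 genes. With the replicate block 2621 genes (17%) were called, with 8 of 35 regulators and 4 of 21 telomere and recombination genes, and the summed Zscan4 copies had a log2 fold change of -0.82 (adjusted p = 0.0489 in edgeR). Leaving out 1 library gave log2 fold changes of -2.94 to 0.91 for the sum, -1.88 to 1.71 for Zscan4b, -2.15 to 1.66 for Zscan4c, -3.0 to 0.86 for Zscan4d, -7.97 to -0.07 for Zscan4e, -7.08 to 0.66 for Zscan4f and -4.26 to 0.66 for Zfp352, with the lone library assumed to vary like the other genotype. Signs turned without WT replicate 1 (the sum, Zscan4b, Zscan4c, Zscan4d, Zscan4f and Zfp352) and without Rest-/- replicate 2 (the sum, Zscan4b, Zscan4c, Zscan4d and Zfp352). Each such fit also leaves the replicate numbers unequal between the genotypes, and the cause of the turned signs was not tested. Single members were measured with the fewest counts in Rest-/- replicate 2, at 0 to 8 each.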

Other observations

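Among 13795 genes with a mean of at least 1 CPM, the members left out, the 5 closest in pattern to the summed Zscan4 copies were chosen by the root mean square difference of log2(CPM + 0.5), centred over the 4 libraries, and are given as a description of those libraries. Snhg14, a long non-coding RNA host gene on chromosome 7, was the closest at 0.195, with 2012 and 366 WT counts and 1088 and 210 Rest-/- counts. Zfp985, a zinc finger gene on chromosome 4, followed at 0.203, with 2599 and 435 WT counts and 1105 and 226 Rest-/- counts. Zscan4a stood at 0.209, the gene with Entrez identifier 100502993 at 0.230 (504 and 90 WT counts, 243 and 47 Rest-/- counts), and Cd80, a co-stimulatory ligand of immune cells, at 0.254 (306 and 49 WT counts, 176 and 29 Rest-/- counts). Zscan4a alone of these 5 was in the 2-cell list. All 5 were higher in both replicate 1 libraries than in either replicate 2 library.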
